A study of Yarrowia lipolytica with 9 samples.

Results

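The genes described here are 187 of the 6127 YALI0 identifiers ending in g in an RNA-seq table of the oil-storing yeast *Yarrowia lipolytica*. Their transcripts were lower at pH 4.0 than at pH 2.0, and lower again at pH 6.0. They were chosen by their measured levels: the group mean of log2(CPM + 1) had to change by -0.5 or lower at each pH step, and the highest group mean had to reach 10 CPM. CPM counts a gene's reads per 1000000 reads after scaling for library composition, and is not corrected for gene length. Because the same 9 libraries chose the genes, the pH differences of these 187 genes are a description. Where the call of a test is given for one of them, it only sets the difference against the spread between replicates and is no independent evidence.

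All libraries came from the wild-type strain W29, with no other genotype in the study. Every bioreactor held the same medium, made with yeast nitrogen base (1.7 g/L), ammonium sulfate (1 g/L), glucose (50 g/L) and yeast extract (1.5 g/L), and cells were taken at hour 50. In the labels the groups differ only in the controlled pH, which was 2.0, 4.0 or 6.0. Each group has 3 libraries, here called replicates A, B and C, and the labels speak of triplicate bioreactors. A library held 12974822 to 17701766 reads, and 3 reads corresponded to 0.169 to 0.234 CPM.

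A yeast in strongly acidic medium meets a steep inward proton gradient, which the plasma membrane proton pump works against at the cost of ATP. Ambient pH also reaches the genome through the Rim101 pathway, known in fungi for switching genes between acidic and alkaline growth. *Y. lipolytica* is further known for growth on fats and alkanes: cytochromes P450 of the Alk family hydroxylate alkanes, alcohol and aldehyde oxidizing enzymes turn the product into fatty acids, and acyl-CoA oxidases open each round of beta-oxidation in the peroxisome. Hexose transporters carry glucose and fructose into the cell. The table does not pair its identifiers with names, so a gene is assigned to one of these families only where published locus-tag assignments, used as background, place it on a list.

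Over the 187 genes, the median log2 difference was -0.93 at the first step (pH 4.0 minus pH 2.0) and -0.75 at the second (pH 6.0 minus pH 4.0). Over all 6165 genes that passed a filter on low values, these medians were -0.02 and -0.00326. The quartiles of the 187 ran from -1.34 to -0.65 at the first step and from -1.07 to -0.60 at the second. From pH 2.0 to pH 6.0 the median difference was -1.73 on the log2 scale. In all, 69 genes were lower by at least 2, 30 by at least 3 and 18 by at least 4 on that scale. At pH 2.0 the genes ranged from 10.5 to 5562 CPM, and 55 of them stood at 100 CPM or more. At pH 6.0 they ranged from 0.171 to 450 CPM, with 88 under 10 CPM and 16 still at 100 CPM or more. In a bulk culture, a lower level in every cell and fewer cells carrying the transcript cannot be told apart.

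All 187 passed the filter on low values. The moderated test of limma, at an adjusted p under 0.05, called 183 of them lower at the first step, where it called 32.6% of all genes tested lower. It called 178 lower at the second step (25.8% of all genes tested) and 176 at both (8.53%). The libraries of pH 4.0 all lay below those of pH 2.0 in 182 of the 187 genes, against 35.3% of all genes. Those of pH 6.0 all lay below those of pH 4.0 in 180 (30.5% of all genes), and both held in 175 (11.2%). The choice of the genes used these same contrasts, so nothing is read from their excess over all genes.

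**Figure D1:**
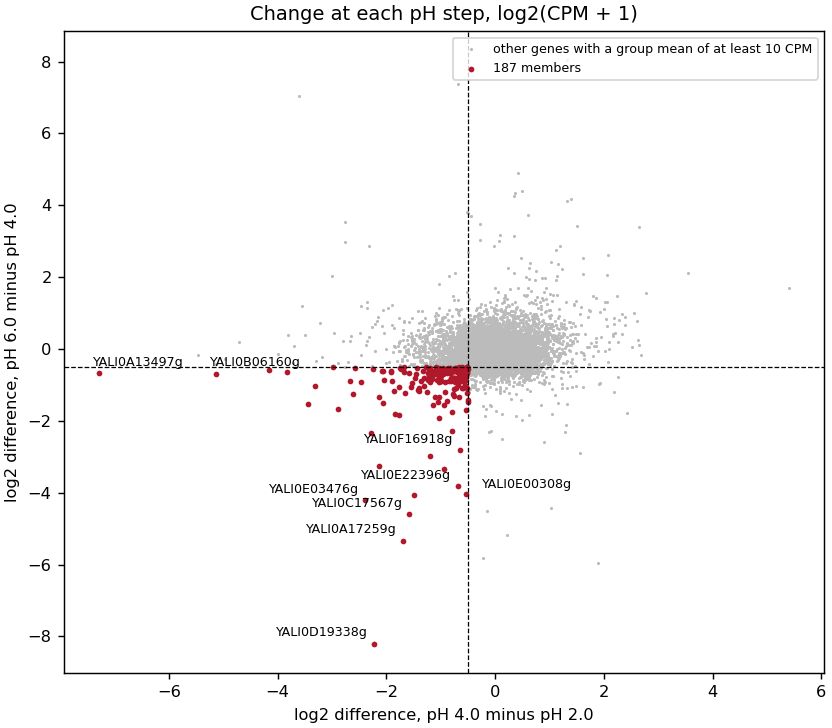
Log2 difference at the first step (horizontal axis) against the second step (vertical axis), on group means of log2(CPM + 1); each point is 1 gene, the 187 chosen genes are red, and dashed lines mark the limits of -0.5. The red points spread along both axes, from YALI0A13497g at -7.29 and -0.67 to YALI0D19338g at -2.22 and -8.20.

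The 187 genes differed in where the loss lay. The first step held a median of 53.6% of a gene's whole log2 fall, with a range of 11.6% to 91.6%. In 141 genes each step held between 33.3% and 66.7% of the fall. In 30 genes more than 66.7% lay in the first step, and in 16 less than 33.3% did. The 1 added to each CPM shrinks the second step of genes low at pH 6.0. Genes near these limits can thus change class with that setting, and 21 of the 30 were under 10 CPM at pH 6.0. The 30 genes lost mostly between pH 2.0 and pH 4.0 had median differences of -1.98 and -0.62 at the first and second step. The 16 lost mostly between pH 4.0 and pH 6.0 had medians of -0.74 and -2.90. Their median level was 661 CPM at pH 2.0 and 312 CPM at pH 4.0. Single genes of the 16 lay between 26.4 CPM (YALI0D25806g) and 3865 CPM (YALI0E00308g) at pH 4.0.

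**Figure D2:**
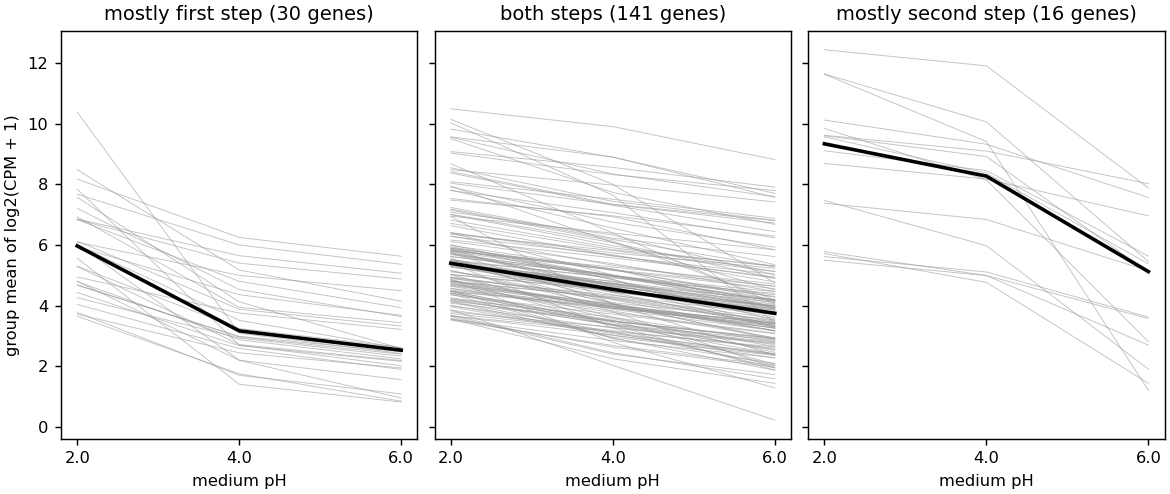
Group mean of log2(CPM + 1) (vertical axis) at the 3 pH values (horizontal axis) for the 30, 141 and 16 genes of each course; grey lines are genes and the black line is their median. The black line bends down early in the first panel, is nearly straight in the second and bends down late in the third.

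The deepest fall belonged to YALI0D19338g. It stood at 3632, 3378 and 2608 CPM in replicates A, B and C of pH 2.0, at 646, 617 and 794 CPM at pH 4.0, and at 1.72, 1.19 and 1.10 CPM at pH 6.0. Every pH 6.0 library was thus below 2 CPM for a transcript that exceeded 600 CPM in every pH 4.0 library. Its log2 differences were -2.22 at the first and -8.20 at the second step (SE 0.15 each). A like course was seen in YALI0A17259g, with 1039, 1089 and 685 CPM at pH 2.0, 310, 345 and 212 CPM at pH 4.0 and 6.78, 5.09 and 6.37 CPM at pH 6.0. The groups did not overlap, and the differences were -1.69 and -5.34 (SE 0.21 each).

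YALI0E03476g went from 1061 ± 233 CPM at pH 2.0 through 204 ± 52.9 CPM to 9.94 ± 0.677 CPM at pH 6.0 (SD, n = 3 each), with log2 differences of -2.38 and -4.20. YALI0C17567g held 3513, 3556 and 2610 CPM at pH 2.0 and 1105, 1026 and 1072 CPM at pH 4.0. It was left at 38.3, 37.1 and 55.7 CPM at pH 6.0, a log2 difference of -4.60 at that step (SE 0.16). For both genes the second step was the larger one and no library of a pH reached into the next group.

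YALI0E00308g was the clearest case of a late loss and had the most reads of the 187 at pH 2.0. It held 5337, 5256 and 6093 CPM at pH 2.0, and 3362, 4384 and 3851 CPM at pH 4.0. At pH 6.0 only 244, 253 and 210 CPM were left. The first step was small at -0.53 (SE 0.11) and held 11.6% of the fall, while the second was -4.03. YALI0F16918g had the same form at a lower level, with 558 ± 113, 351 ± 26.4 and 49.5 ± 10.9 CPM (SD, n = 3 each) and 18.8% of the fall in the first step.

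At the other end, 3 genes had nearly all of their fall before pH 4.0. YALI0A13497g stood at 3545, 551 and 1217 CPM at pH 2.0, at 9.90, 8.34 and 5.14 CPM at pH 4.0 and at 3.92, 5.43 and 3.90 CPM at pH 6.0. Its pH 2.0 libraries differed 6.44-fold among themselves, and its pH 4.0 and pH 6.0 libraries overlapped. The log2 differences were -7.29 and -0.67 (SE 0.52 each), and the second was not called. YALI0B06160g, at 751, 63.8 and 248 CPM at pH 2.0, had 5.74 ± 2.05 CPM at pH 4.0 and 3.07 ± 0.319 CPM at pH 6.0. YALI0E25443g, at 129, 19.3 and 39.4 CPM, had 1.66 ± 0.0923 and 0.788 ± 0.272 CPM (SD, n = 3 each). For both of these the second step was not called either. In all 3 genes replicate A was the highest and replicate B the lowest pH 2.0 library.

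The 3 genes nearest to equal steps happened to have low levels, although even courses occurred at higher levels too. YALI0E21351g, with 17.3 ± 1.10, 9.44 ± 1.31 and 4.93 ± 0.860 CPM from pH 2.0 to pH 6.0 (SD, n = 3 each), had log2 differences of -0.82 at both steps. YALI0E02112g had -0.55 and -0.56, though under quantile normalization the first was -0.23 and not called. YALI0D01243g had -0.51 at both steps, but its pH 4.0 libraries (9.38, 10.5 and 6.85 CPM) overlapped those of pH 6.0 (7.43, 6.35 and 4.24 CPM), and its second step was not called. Its first-step call was lost under quantile normalization (-0.13) and without any 1 of pH 2.0 replicates A or C, pH 4.0 replicates A or C, or pH 6.0 replicate B (-0.35 to -0.55). Its second step lay at the edge of the threshold: it was called with the replicate block, with equal totals, under quantile normalization, by DESeq2 and without pH 2.0 replicates A or B, pH 4.0 replicate C or pH 6.0 replicate A (-0.50 to -0.67). The smallest pH 6.0 level was that of YALI0C16522g, picked out after its values were seen: 13.9 CPM at pH 2.0, 3.15 CPM at pH 4.0 and 0.171 CPM at pH 6.0. The pH 6.0 level rested on 8 reads over 3 libraries, none with more than 3, so its size is set by counting error.

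The 187 genes together took 4.38% ± 0.439 of all reads at pH 2.0, 1.69% ± 0.152 at pH 4.0 and 0.533% ± 0.0160 at pH 6.0 (SD, n = 3 each). At pH 2.0, 1.98% ± 0.0598 lay on the 16 late genes, 1.90% ± 0.154 on the 141 even ones and 0.5001% ± 0.269 on the 30 early ones. The 4 genes with the most reads at pH 2.0 were YALI0E00308g, YALI0C17567g, YALI0D19338g and YALI0A13497g. They held 1.52% ± 0.219 of the reads at pH 2.0 and 0.0271% ± 0.00122 at pH 6.0. The other 183 went from 2.86% ± 0.222 through 1.15% ± 0.0971 to 0.506% ± 0.0149.

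**Figure D3:**
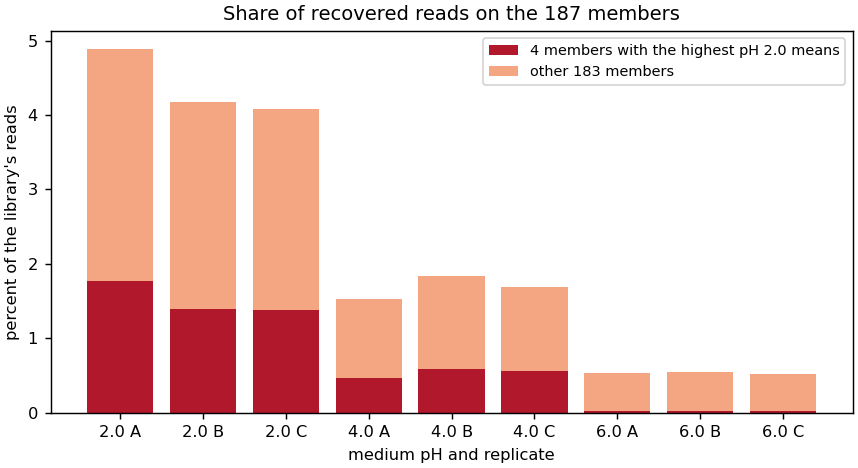
Percent of each library's reads (vertical axis) on the 187 genes, by medium pH and replicate (horizontal axis), stacked as the 4 genes with the highest pH 2.0 means and the other 183. The pH 2.0 bars stand between 4.08% and 4.88%, those of pH 4.0 between 1.53% and 1.84%, and those of pH 6.0 between 0.519% and 0.551%.

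Of 117 measured loci on 17 lists of metabolism, transport and pH response, 6 were among the 187 genes. They lay on 4 lists: 1 of 6 acyl-CoA oxidases, 1 of 11 alkane cytochromes P450, 2 of 8 genes of fatty alcohol and aldehyde oxidation, and 2 of 3 hexose transporters. The P450 list held 12 loci and the hexose transporter list 4, not all of them measured. The other 13 lists had none: later steps of beta-oxidation, peroxins, regulators of alkane and lipid metabolism, lipases, fatty acid synthesis, triacylglycerol synthesis, the TCA and glyoxylate cycles, glycolysis, the pentose phosphate pathway with polyols, erythritol use, citrate transport with ambient pH, the alternative oxidase with external NADH dehydrogenase, and hyphal growth with AMP deaminase. Among all identifiers the share was 3.05%, and on the lists 5.13%.

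YALI0E27654g was the member on the acyl-CoA oxidase list. It stood at 352, 409 and 362 CPM at pH 2.0, 179, 198 and 145 CPM at pH 4.0 and 111, 115 and 109 CPM at pH 6.0, with no overlap between groups. The log2 differences were -1.11 and -0.62 (SE 0.11 each). Of the 6 oxidases, limma called 2 lower and 1 higher at the first step, and again 2 lower and 1 higher at the second. Of all genes tested, it called 32.6% lower and 30.8% higher at the first step, and 25.8% and 25.7% at the second. The second oxidase called lower, YALI0E06567g, went from 329 to 175 and 143 CPM (log2 -0.92 and -0.28). Its second call (limma, adjusted p = 0.0315) was lost without pH 4.0 replicate B (log2 -0.18) and without pH 6.0 replicates A (-0.24) or C (-0.29). YALI0C23859g was the higher one, at 131, 252 and 334 CPM. Its second call was lost without pH 4.0 replicates A or B, without pH 6.0 replicates B or C, and under quantile normalization.

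YALI0B13816g represented the alkane cytochromes P450. Its libraries read 932, 852 and 930 CPM at pH 2.0, 472, 549 and 415 CPM at pH 4.0 and 207, 221 and 196 CPM at pH 6.0. The groups stood clear of each other, and the steps were alike in size at -0.92 and -1.19 (SE 0.10 each). Of the 11 P450 loci, 6 were called lower and 3 higher at the first step, and 5 lower and 2 higher at the second. Of all genes tested, 32.6% were called lower and 30.8% higher at the first step, and 25.8% and 25.7% at the second. YALI0E25982g, at 6652, 3309 and 2471 CPM, had a larger first step (-1.03) and missed the limit at the second (-0.40). YALI0E23474g (49.2, 116 and 191 CPM) and YALI0A15488g (961, 1567 and 2872 CPM) rose at both steps.

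The members on the list of fatty alcohol and aldehyde oxidation were YALI0A17875g and YALI0E15400g. The former stood at 516, 553 and 503 CPM at pH 2.0, 310, 375 and 281 CPM at pH 4.0 and 220, 251 and 197 CPM at pH 6.0. The latter went from 223, 247 and 199 CPM through 138, 155 and 111 CPM to 73.1, 82.0 and 69.4 CPM. Neither had overlapping groups, and in both replicate B was the highest library at each pH. Their log2 differences were -0.71 and -0.53 (SE 0.12 each) for YALI0A17875g, and -0.73 and -0.83 (SE 0.12 each) for YALI0E15400g. Of the 8 loci, 6 were called lower at the first step and 3 at the second, and none was called higher. The shares of all genes tested were 32.6% and 25.8% lower, and 30.8% and 25.7% higher. YALI0B14014g, the list's locus with the most reads at pH 2.0, had 2353, 1198 and 978 CPM. Its second step of -0.29 stayed short of the limit.

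Both members on the hexose transporter list had the larger difference at the first step, though in YALI0E23287g the steps were close. YALI0C06424g held 178, 173 and 275 CPM at pH 2.0, 53.0, 71.5 and 66.5 CPM at pH 4.0 and 33.1, 51.5 and 38.3 CPM at pH 6.0. The groups did not overlap, though replicate B of pH 6.0 (51.5 CPM) came close to replicate A of pH 4.0 (53.0 CPM). The log2 differences were -1.67 and -0.64 (SE 0.20 each), and the call at the second step was lost without pH 4.0 replicates B or C or pH 6.0 replicates A or C. YALI0E23287g held 464, 283 and 276 CPM at pH 2.0, 144, 161 and 168 CPM at pH 4.0 and 86.7, 121 and 60.4 CPM at pH 6.0. Its differences were -1.07 and -0.87 (SE 0.24 each), with replicate A well above the others at pH 2.0. Which of its steps was the larger rested on that library. The remaining measured transporter, YALI0F19184g, lay at 2.77 to 3.27 CPM in group means and was not called at either step.

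**Figure D4:**
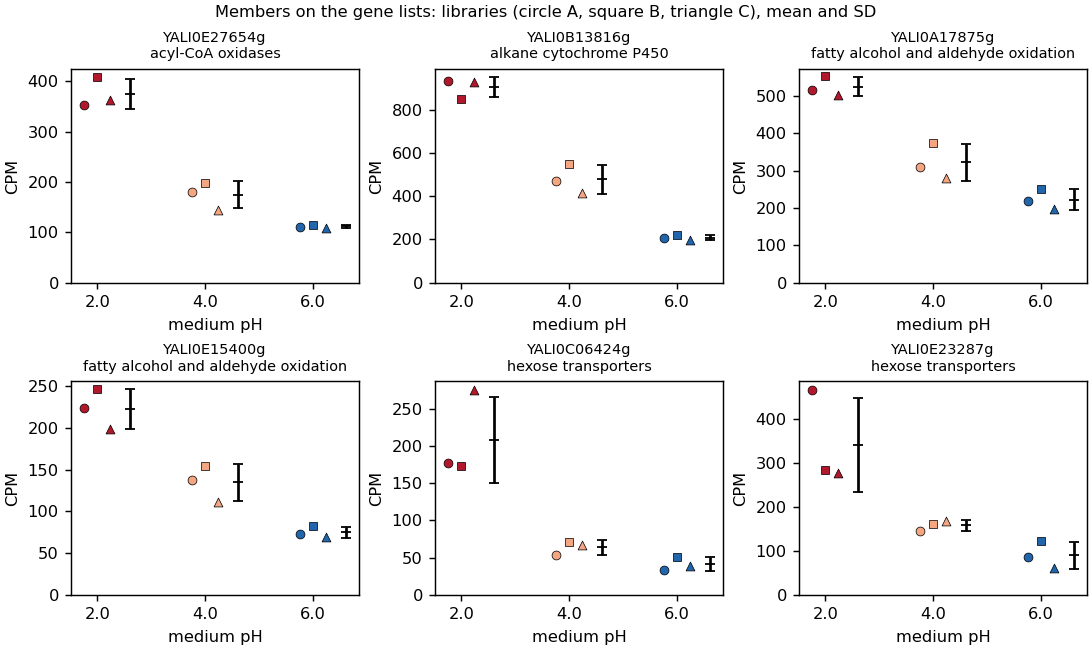
CPM (vertical axes, from 0) of the 6 members on the lists at the 3 pH values (horizontal axes); circles, squares and triangles are replicates A, B and C, and the bar is the mean with its SD (n = 3). No pH group of these genes overlaps the next, and the SD is widest at pH 2.0 for both hexose transporters, at 57.6 CPM in YALI0C06424g and 107 CPM in YALI0E23287g.

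The pH 2.0 libraries did not always hold the same level. The highest pH 2.0 library exceeded the lowest by at least 2-fold in 15 of the 187 genes (8.02%). Of the 5404 genes that reached 10 CPM at pH 2.0, the 187 included, 2.66% did so. Replicate A was the highest of the 3 in 12 of these 15. Over all 187 genes, replicate A was highest in 109 (58.3%, against 36.2% of all genes) and lay above its group mean by a median of 0.10 on the log2 scale. In all genes tested the corresponding median was -0.00542. The rule used these same values, and a gene raised in 1 pH 2.0 library was more likely to be taken. Nothing is thus read from the excess of the 187 over all genes. On the first principal component of the 5936 genes outside the set, which held 68.4% of their variance, replicate A also lay farther from pH 6.0 than its fellows, at -42.7 against -33.1 and -34.6. Without it 174 genes met the rule, 169 of them among the 187. The first-step median of the 187 was then -0.88, and 181, 182 and 178 of them were called lower at the first, second and both steps. Of all 6165 genes tested, that refit called 1846, 1653 and 527 lower.

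At pH 4.0 replicate B was the highest library in 115 of the 187 genes (61.5%, against 30.5% of all genes), with a median of 0.11 above its group mean. Its score on that component, 2.43, was the closest to pH 2.0 of the pH 4.0 libraries, which otherwise stood at 5.30 and 7.21. At pH 6.0 replicate B was highest in 92 genes (49.2%, against 31.4%), while the 3 component scores lay between 31.5 and 32.3. The median replicate SD of the 187 genes was 0.15 at pH 2.0 on the log2 scale, and that of other genes of at least 10 CPM was 0.10. At pH 4.0 it was 0.18 in the 144 of the 187 with at least 10 CPM, against 0.13. At pH 6.0 it was 0.11 in the 99 with at least 10 CPM, against 0.08. The rule used the values of all 9 libraries, so these differences from other genes are a description.

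The widest spread was that of a pair with consecutive identifiers, YALI0B13090g and YALI0B13112g. The former read 481 and 756 CPM in replicates A and B of pH 2.0 but 4.16 CPM in replicate C. It then read 13.5, 17.8 and 15.7 CPM at pH 4.0 and 3.69, 5.03 and 3.90 CPM at pH 6.0. The latter read 23.3, 39.1 and 0.675 CPM at pH 2.0, 3.35, 4.17 and 3.82 CPM at pH 4.0 and 1.49, 1.32 and 2.46 CPM at pH 6.0. In both genes pH 2.0 replicate C lay below every pH 4.0 library, so a fall from pH 2.0 to pH 4.0 was seen in replicates A and B alone. The first step was -2.90 (SE 1.43) for YALI0B13090g and -1.31 (SE 0.90) for YALI0B13112g, and neither step of either gene was called in the fit of all 9 libraries. Without replicate C the first step was -5.19 and -2.71, and both steps of both genes were called. edgeR (-4.72 and -2.46) and DESeq2 (-4.70 and -2.46) called the first step with all libraries kept.

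YALI0E22396g had the opposite exception. It read 578, 592 and 1376 CPM at pH 2.0, with replicate C the highest, and 602, 596 and 315 CPM at pH 4.0. The pH 2.0 and pH 4.0 libraries overlapped, and the first step (-0.68, SE 0.33) was not called. Its size rested on the replicates C: it was -0.27 without that of pH 2.0 and -0.38 without that of pH 4.0, both short of the limit. It was called without pH 2.0 replicate A (-0.90), with equal totals (-0.89) and under quantile normalization (-0.97). At pH 6.0 it was down to 39.9, 31.4 and 29.6 CPM, a second step of -3.82. Counted by gene, 12 of the 187 had overlapping libraries at a step: 5 at the first and 7 at the second.

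**Figure D5:**
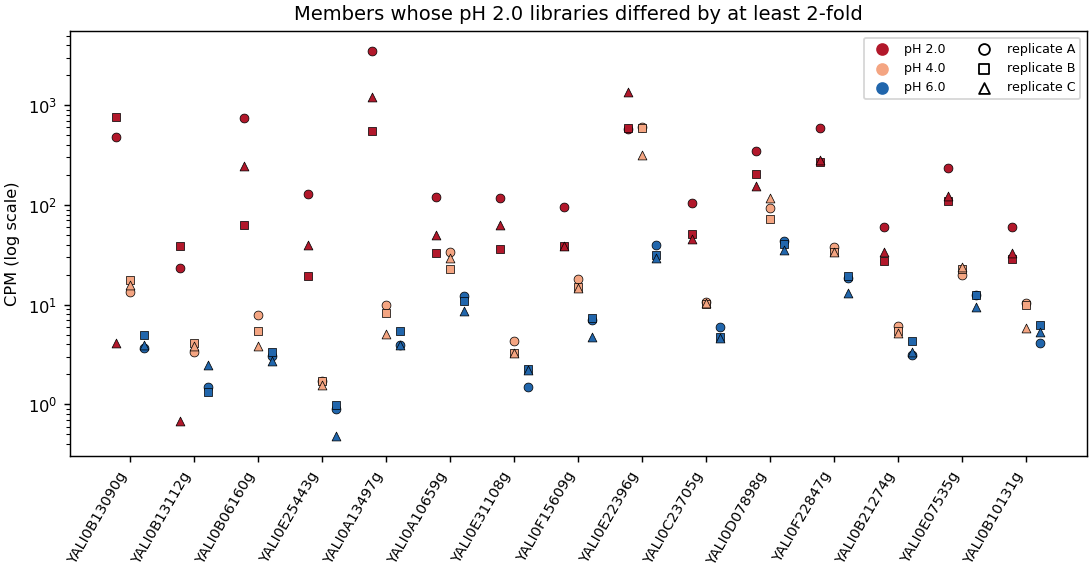
CPM on a log scale (vertical axis) of the 15 genes whose pH 2.0 libraries differed by at least 2-fold (horizontal axis, ordered by that difference); colours are the pH values (red is pH 2.0), and circles, squares and triangles are replicates A, B and C. For YALI0B13090g and YALI0B13112g the red triangle lies below all pH 4.0 points, at 4.16 and 0.675 CPM.

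Position played no part in the rule. In YALI0 identifiers the letter names the chromosome and the number gives the order along it. The 187 genes were found under all 6 letters, at 2.66% (A) to 3.31% (D) of the identifiers of a letter. Within 20 identifiers of either end of a letter's order lay 6 of them, or 3.21%, and 3.92% of all identifiers. Of the 187, 10 (5.35%) had another of the set as the next identifier in the table, all in pairs, while 6.01% of all identifiers had one of the set beside them. The set was thus scattered.

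The pairs differed in how closely their genes kept step. YALI0F24255g read 1158, 1823 and 1414 CPM at pH 2.0, 872, 1037 and 972 CPM at pH 4.0 and 449, 439 and 463 CPM at pH 6.0. Its neighbour YALI0F24277g read 697, 974 and 641 CPM, then 421, 575 and 448 CPM, then 179, 182 and 210 CPM. Replicate B was the highest of both at pH 2.0 and pH 4.0. The ratio of the former to the latter, which shows only how unequally they changed, stayed between 1.66 and 2.50 in all 9 libraries. In the pair YALI0A20570g (142 ± 18.7, 69.1 ± 0.474 and 17.6 ± 3.56 CPM) and YALI0A20592g (62.6 ± 2.26, 36.0 ± 2.17 and 14.4 ± 1.50 CPM; SD, n = 3 each), the second step was the larger in both. YALI0B21274g fell from 40.6 ± 17.6 to 5.61 ± 0.506 CPM at the first step and YALI0B21296g from 42.8 ± 4.87 to 21.1 ± 3.35 CPM (SD, n = 3 each). The second step of YALI0B21274g (-0.53) was not called, but was without pH 2.0 replicates A or B. In the remaining pair, YALI0C23705g had steps of -2.47 and -0.91, and YALI0C23727g steps of -1.28 and -0.50.

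The limits of the rule ran through a continuum. At the first step YALI0D16709g lay just inside (-0.504) and YALI0E00682g just outside (-0.497). At the second, YALI0C23727g (-0.5003) and YALI0D18964g (-0.4992) fell on either side. At the limit of 10 CPM the nearest were YALI0E31240g (10.5 CPM) and YALI0E00286g (9.61 CPM). None of the 43 rows with other identifiers, 16 of them of the mitochondrial genome, met the values of the rule.

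The same rule turned around, with both steps at 0.5 or higher, took 208 genes. Their median steps were 0.91 and 0.85, and the first step held a median of 50.2% of the rise. More than 66.7% of the change lay in the first step in 21 of the 208 rising genes and in 30 of the 187 falling ones. A change of at least 4 on the log2 scale was found in 13 rising and 18 falling genes. The pseudocount of 1 shrinks changes at low levels, which lie at the second step in falling genes and at the first in rising ones. Of the 187 falling genes, 88 were under 10 CPM at pH 6.0, and of the 208 rising genes 45 were at pH 2.0. The shares and counts of both sets are thus not on a like footing. Both sets share all 9 libraries, and their difference was not tested.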

How the data were processed

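The deposited table holds a normalized signal for 6170 rows: reads per gene as CPM, divided by the authors' effective library size from edgeR, per the file headers. All values were whole multiples of 1 read (tolerance 0.01), which gave back the reads of each library. bcl2fastq 1.8.4, Trimmomatic 0.30, TopHat2 2.0.10 and HTSeq are named in the submitters' processing notes. The library kit was stranded, per the labels. The sources used here do not give the genome build, the annotation or the strand setting of the counting, so levels of genes that overlap, lie antisense or have a near-identical copy are uncertain. Of the 8689 reference genes, 0 matched a row.

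The 6165 genes reaching 1 CPM in 3 or more libraries were fitted on log2(CPM + 1) in R 4.3.3 by limma 3.58.1 with its trend option, 1 mean per pH over 9 libraries, Benjamini-Hochberg adjusted over all genes. The pseudocount of 1 understates changes of low genes. SE are those of this fit. edgeR 4.0.16 (quasi-likelihood) and DESeq2 1.42.0 on the recovered reads were alternatives. The fits were tested on simulated data. Principal components were taken of log2(CPM + 1), centred by gene. Chi-square per degree of freedom between replicates was 8.79 to 55.4, so none was a copy.

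The genes and lists were chosen with earlier results of these data known. Genes are named if on a list, largest in fall or level, extreme or even in course, in a pair, nearest a limit, or most variable at pH 2.0. Other pairs and overlapping genes were named after their values were seen.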

Additional observations from a re-analysis of the deposited data

How the results depend on the processing

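The number of genes meeting the rule was 111 with a pseudocount of 5 and 204 with 0.25, 90 with a limit of 50 CPM, and 296, 119 or 30 with steps of -0.4, -0.6 or -1. Scaling to equal totals moved the first-step median of all genes from -0.02 to -0.22 and that of the 187 to -1.13, and took 263 genes, the 187 included. Quantile normalization took 147, sharing 131. Leaving out 1 library gave 163 (pH 4.0 replicate B) to 199 genes, and 108 of the 187 met the rule in every such set. With the replicate block, 184, 179 and 178 of the 187 were called lower at the first, second and both steps. The fit without it called 183, 178 and 176. Of all 6165 genes tested, 1974, 1557 and 512 were called lower with the block, and 2007, 1593 and 526 without it. Correlations of deviations were -0.20 to 0.27 between libraries of the same letter and -0.29 to 0.22 between those of other letters. Between pH 4.0 and pH 6.0 the same letters had 0.27, 0.09 and 0.11. Whether the letters pair the libraries was not settled by these values. At an adjusted p under 0.01, 277 of all genes were called lower at both steps, against 526. The second step of YALI0A13497g, YALI0B06160g, YALI0E25443g, YALI0B13090g, YALI0B13112g and YALI0B21274g, not called in the fit of all libraries, was called in a fit of pH 4.0 and pH 6.0 alone, which leaves the spread at pH 2.0 out. Among the steps called in the fit of all 9 libraries, no direction reversed for the 28 named members. The check did not cover steps not called in that fit. Some of the 1008 refits, such as the replicate block or leaving out a library of a pH outside the step, could not change a step's difference. Levels near 3 reads are limited by depth.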

Other observations

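Of the 10 identifiers directly beside the consecutive pairs, 4 were lower at both steps, 6 were higher at a step or both, and 0 met the rule. Next to YALI0B13090g and YALI0B13112g, YALI0B13046g had log2 differences of -0.85 and 2.02, and YALI0B13134g of 0.10 and 1.79. Next to YALI0B21274g and YALI0B21296g, YALI0B21252g had 0.76 and -0.50, and YALI0B21318g had 1.58 and -0.07. Beside YALI0A20570g and YALI0A20592g, YALI0A20548g had -0.74 and -0.04, and YALI0A20614g had 0.83 and -0.28. Both neighbours of YALI0C23705g and YALI0C23727g were slightly lower at each step, with -0.23 and -0.20 in YALI0C23683g and -0.35 and -0.24 in YALI0C23749g. Beside YALI0F24255g and YALI0F24277g, YALI0F24189g had 0.15 and -0.61, and YALI0F24299g had -0.53 and -0.16. These genes were picked for their place, after the pairs had been found.

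Of the 15 genes whose pH 2.0 libraries differed by at least 2-fold, 10 had replicate A as the highest and B as the lowest. Besides YALI0A13497g, YALI0B06160g and YALI0E25443g, the widest of them were YALI0A10659g (121, 32.8 and 49.7 CPM in A, B and C), YALI0E31108g (117, 36.6 and 62.9 CPM) and YALI0F15609g (95.0, 38.7 and 39.2 CPM). These were picked out after their values were seen, and the likeness was not tested.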
